A study of Mus musculus with 9 samples.

Results

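The integrated stress response was followed in dissected nigral tissue through 10 genes, Atf4, Ddit3, Atf3, Trib3, Asns, Chac1, Sesn2, Ddit4, Atf6 and Xbp1. They were taken by name from the 55450 gene identifiers counted in each library, and all 10 were among the 20892 genes with enough counts to be tested. The symbol Ddit3 belongs to 2 identifiers of GENCODE M21, and the one with the longer span was used. All exon bases of the shorter are shared with the longer on the same strand, and the shorter had no counts. RNA of the substantia nigra was sequenced in 3 groups of 3 libraries, named A, B and C, collected 5 weeks after lentiviral transduction of male mice. CTR mice carried CX3CR1-CreERT2, a tamoxifen-dependent Cre placed in the fractalkine receptor gene of microglia and other myeloid cells, and received a Cre-inducible lentivirus for GFP, described elsewhere in the study as destabilized GFP. CX3 mice carried the same CX3CR1-CreERT2 allele and received a Cre-inducible, synuclein-expressing lentivirus instead. DAT mice carried DAT-Cre, which is active in dopaminergic neurons, and received the synuclein-expressing lentivirus. The CX3CR1-CreERT2 mice were given tamoxifen for 4 days after surgery, and both vectors used the Ef1a promoter. The age at transduction is 8 weeks in one place of the study and the purchased mice were 9 weeks old in another. CTR therefore shares its Cre line and tamoxifen with CX3 but not with DAT, so in DAT against CTR the vector, the Cre line and tamoxifen cannot be told apart. In CX3 against DAT, the cell type that expressed the vector, the Cre line and tamoxifen cannot be told apart either. The number of animals behind each library is not given in the sources used here, and p-values measure only the spread between these libraries, which may be technical.

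The integrated stress response is a shared arm of several stress pathways. The kinases PERK, PKR, GCN2 and HRI phosphorylate the translation factor eIF2, which lowers general protein synthesis while the mRNA of the transcription factor ATF4 is translated more. ATF4 and its partner CHOP, the product of Ddit3, then turn on genes for amino acid supply, tRNA charging and redox balance, and genes that end the response. XBP1 and ATF6 belong to the neighboring branches of the unfolded protein response, which raise chaperones of the endoplasmic reticulum (ER). Because ATF4 is set largely by translation, the level of Atf4 mRNA is only one view of its activity. The comparisons below ask how the mRNAs of these genes differed in whole tissue when the synuclein-expressing vector was active in myeloid cells or in dopaminergic neurons.

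Between 21592817 and 39475428 counts fell on genes in each library. Levels are CPM, counts scaled to a common library size by TMM (a factor per library that centres most genes), and 3 counts, taken as the smallest countable signal, equal 0.0779 to 0.151 CPM for counting error only. The product of the synuclein-expressing vector was not analysed here, so no measured gene checked the labels, and groups are named as labelled. Cx3cr1 itself was at 102 ± 0.900 CPM in CTR, 44.6 ± 0.894 CPM in CX3 and 83.4 ± 4.31 CPM in DAT (SD, n = 3), although CTR and CX3 carry the same Cre allele. T cell, B lineage and microglia markers were highest in the libraries labelled CTR, with summed T cell markers of 50.6 to 52.9 CPM in CTR, 43.4 to 45.3 CPM in CX3 and 12.2 to 14.3 CPM in DAT. Dopaminergic neuron markers, which define the labelled tissue, were present in every library, at 438 to 443 CPM in sum in CTR, 627 to 637 CPM in CX3 and 384 to 389.6 CPM in DAT, and 7 of 8 were called higher in CX3 than in CTR and than in DAT. The libraries CX3A and DATB stood apart from the other libraries of their groups: their deviations from the group mean fell with the length of a gene's exons, with Spearman correlations of -0.492 and -0.509 over 15213 genes. Results are therefore also given without both, an alternative chosen after seeing the data. In bulk tissue, fewer cells of a type and less RNA per cell cannot be told apart.

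In CX3 against CTR, Xbp1, Ddit4, Asns and Sesn2 were lower and none of the 10 genes was called higher (edgeR's quasi-likelihood test with Benjamini-Hochberg adjustment, threshold 0.05). At an unadjusted p under 0.05, 1 gene, Atf4, was higher in CX3, and DESeq2 called 0 of the 10 higher. Among all genes tested, 16.5% were called lower and 14.0% higher in this comparison. DAT against CTR split the genes evenly: Sesn2, Chac1, Atf6 and Asns were higher, and Atf3, Ddit3, Xbp1 and Ddit4 were lower. The background was large here, with 32.0% of all genes called higher and 27.9% called lower, so 4 of 10 in each direction is little above it. Directly compared, CX3 exceeded DAT in Atf3 and Ddit3 and lay below DAT in Sesn2, Chac1, Asns, Atf6 and Ddit4, against 27.6% of all genes called higher and 31.3% called lower in CX3. The median log2 fold change of the 10 genes was -0.24 in CX3 against CTR, -0.10 in DAT against CTR and -0.21 in CX3 against DAT, beside medians over all genes tested of -0.0033, -0.0038 and 0.010. The comparisons of CX3 and of DAT with CTR share the CTR libraries. Without CX3A and DATB, the called genes were 1 higher and 5 lower in CX3 against CTR, 4 and 4 in DAT against CTR, and 3 and 5 in CX3 against DAT. Scaled by library size alone, they were 1 and 3, 2 and 4, and 3 and 3.

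**Figure D1:**
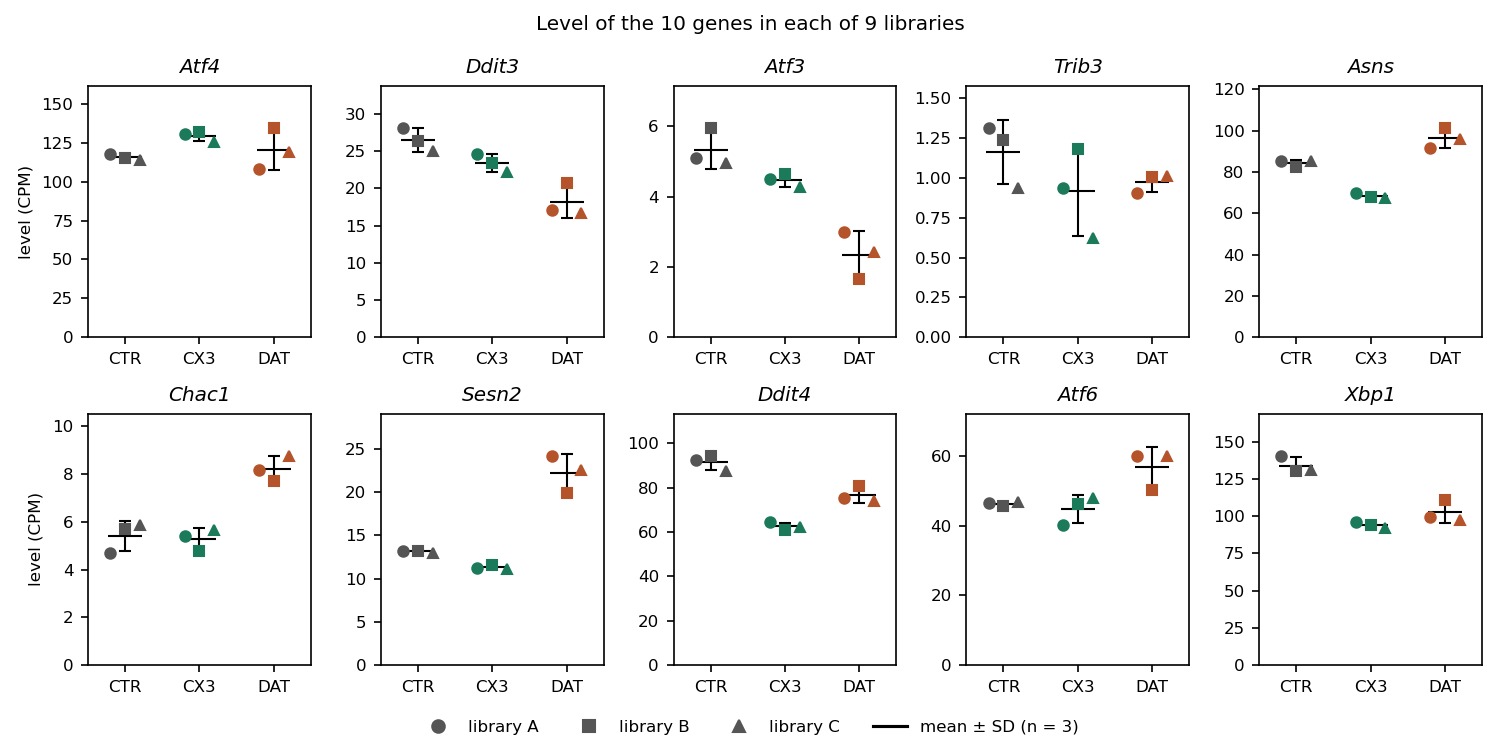
Level of each gene in CPM (vertical axes, each from 0) in the 3 libraries of CTR, CX3 and DAT, with the mean and SD of each group. Sesn2 sits at 20.0 to 24.2 CPM in DAT and at 13.2 CPM or less elsewhere, while all CTR libraries exceed the others in Xbp1 and Ddit4.

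**Figure D2:**
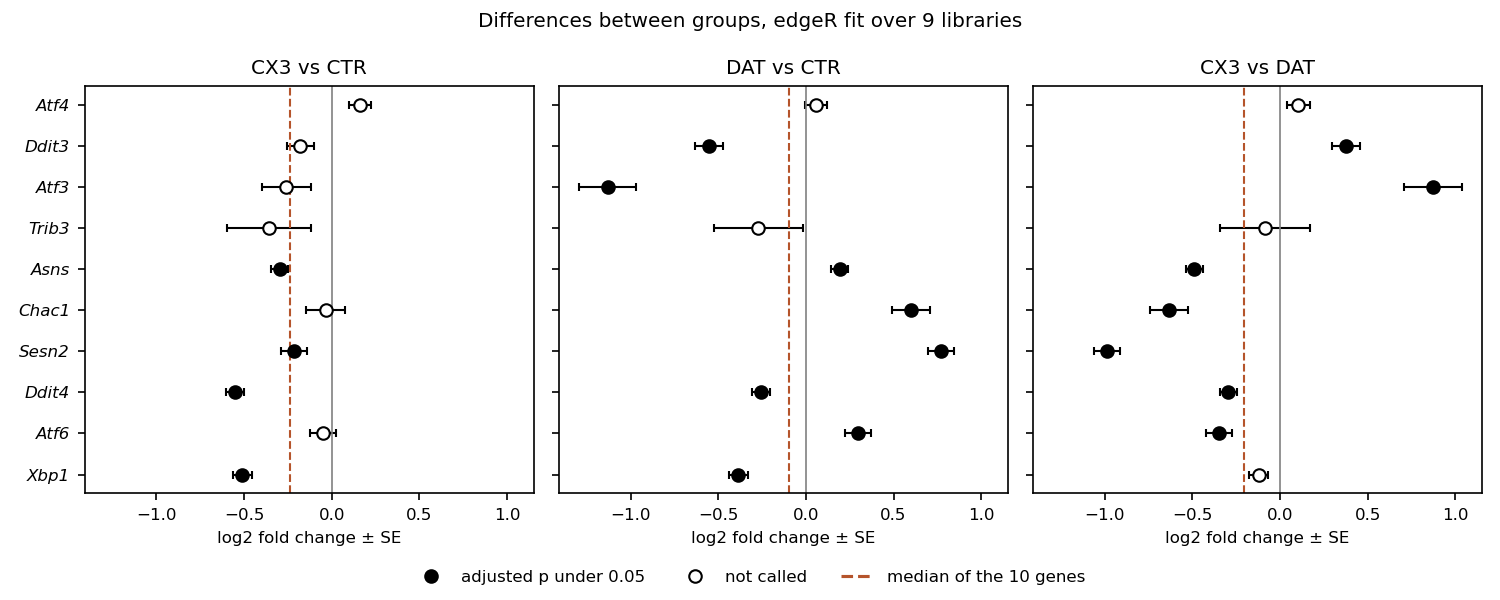
Fitted log2 fold change with its SE (horizontal axis) of the 10 genes in the 3 comparisons. Filled points passed an adjusted p of 0.05, and the dashed line marks the median of the 10 genes, which was -0.24, -0.10 and -0.21 from left to right.

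Atf4 (ENSMUSG00000042406.8, GRCm38 chromosome 15 from 80255184 to 80257541, plus strand), the central transcription factor of the response, had 118, 115 and 114 CPM in CTR, 131, 132 and 126 CPM in CX3 and 108, 135 and 119 CPM in DAT, libraries A, B and C in this order here and below. The CX3 libraries lay above all CTR libraries, while the DAT libraries spanned both groups, with DATB highest. The log2 fold change was 0.16 ± 0.063 (SE) in CX3 against CTR, with an adjusted p of 0.0703, and 0.06 ± 0.064 in DAT against CTR, with an adjusted p of 0.464. Neither was called, and CX3 against DAT, 0.10 ± 0.064 with an adjusted p of 0.178, was not called either. The Atf4 difference between CX3 and CTR was called when DATB was left out (log2 fold change 0.17, adjusted p 0.000606), when DATA was left out (0.16, adjusted p 0.0271) and without CX3A and DATB together (0.15, adjusted p 7.33e-05). Without DATB, Atf4 was also called higher in CX3 than in DAT (0.20, adjusted p 0.000149), and the same held without CX3A and DATB together (0.21, adjusted p 1.19e-06). It was called as well under library size alone (0.30, adjusted p 0.001), in reverse-strand counts (0.19, adjusted p 0.0185) and in forward-strand counts (0.20, adjusted p 0.0125). The difference was not called without DATA (0.05, adjusted p 0.501) or with an offset for exon length (0.04, adjusted p 0.429). CX3 against CTR was called under library size alone (0.21, adjusted p 0.0221), in reverse-strand counts (0.20, adjusted p 0.0322) and with the length offset (0.13, adjusted p 0.0294). The fit of only these 2 groups called it too (0.17 ± 0.034, adjusted p 0.000693), and so did the fit without the filter on low counts (0.20, adjusted p 0.00855). CX3 against CTR was not called in forward-strand counts (0.13, adjusted p 0.119) or by DESeq2 (0.16, adjusted p 0.0533). Nor was it called on leaving out any one CTR or CX3 library (adjusted p between 0.0944 and 0.195).

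Ddit3 (ENSMUSG00000025408.15, chromosome 10 from 127290774 to 127296288, plus strand) encodes CHOP, a transcription factor linked to cell death under lasting stress. Its levels were 28.1, 26.3 and 25.0 CPM in CTR, 24.6, 23.4 and 22.3 CPM in CX3, and 17.1, 20.8 and 16.8 CPM in DAT. The groups did not overlap, and DAT was lowest. Ddit3 fell in DAT against CTR (log2 fold change -0.55 ± 0.080, adjusted p 3.84e-05) and was higher in CX3 than in DAT (0.37 ± 0.080, adjusted p 0.00111), a difference of 0.57 under library size alone and 0.23 with an offset for exon length. The difference between CX3 and CTR, -0.18 ± 0.076 with an adjusted p of 0.0902, was not called, but it was called without DATB (-0.17, adjusted p 0.0188) and without CX3A and DATB together (-0.22, adjusted p 0.00122). Of the exon bases of Ddit3, 4.73% lie opposite exons of Gm4189 and Mars, and 6.13% are shared with the shorter Ddit3 identifier. Counts of both strands together cannot assign reads that lie there to either gene.

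Atf3 (ENSMUSG00000026628.13, chromosome 1 from 191170296 to 191218039, minus strand) encodes a repressor of the same bZIP family that is induced by injury as well as by ATF4. It had 5.09, 5.96 and 4.97 CPM in CTR, 4.52, 4.65 and 4.27 CPM in CX3 and 2.99, 1.66 and 2.41 CPM in DAT, the last from 33 to 109 counts per library. Atf3 in DAT was 0.457 times its level in CTR (log2 fold change -1.13 ± 0.16, adjusted p 3.37e-05), the largest change among the 10 genes in the 3 comparisons. It was higher in CX3 than in DAT (0.87 ± 0.16, adjusted p 0.000369), whereas CX3 against CTR, -0.26 ± 0.14 with an adjusted p of 0.189, was not called although the libraries did not overlap. DATB was the lowest library. Without CX3A and DATB, the difference between DAT and CTR was -0.98 with an adjusted p of 2.56e-08.

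The 5 genes that follow are known targets of ATF4 or of its partners. ATF4 binds a composite element of C/EBP and ATF type, written here as TGATGNAA on one strand and TTNCATCA on the other. In windows from 250 bases before to 50 bases after the transcription start (RefSeq, GRCm38.p6), this element was present in 3.97% of 32851 windows. It was present in 4 of the 9 windows found for these genes, since Atf6 had no entry. The stretches below show where the element lies in the genes that hold it, with the matched letters in capitals and the strand of the gene read 5′ to 3′.
Asns: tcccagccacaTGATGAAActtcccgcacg
Chac1: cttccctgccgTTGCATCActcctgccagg
Trib3: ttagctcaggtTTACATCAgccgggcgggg
Atf3: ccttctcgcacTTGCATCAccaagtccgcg
The Asns stretch lies at chr6:7693214-7693243 on the minus strand, and its match begins 23 bases before the RefSeq start. Those of Chac1 (chr2:119351038-119351067, plus strand) and Atf3 (chr1:191183425-191183454, minus strand) begin 193 and 110 bases before it, while that of Trib3 (chr2:152344028-152344057, minus strand) begins 14 bases after it. By the GENCODE span of Trib3, whose minus-strand start is 152344032, that match lies before the start instead. For Asns, whose GENCODE minus-strand start is 7693254, the match lies after that start, inside the span of the gene. The Atf3 window, from 191183284 to 191183583, lies inside the GENCODE span of Atf3 and not at its outer start. The windows of Atf4, Ddit3, Xbp1, Sesn2 and Ddit4 did not hold these letters, which says nothing of elements outside the windows or of other spellings. A pair of elements bound by XBP1 or ATF6 was searched on both strands too. TGACGTGG was present in 0.676% of all windows, and CCAAT followed after 9 bases by CCACG in 0.119%, and neither in any of the 9 windows. The genes with the element did not move as a group: in DAT against CTR, Asns and Chac1 were called higher, Atf3 lower and Trib3 in neither direction.

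Asns (ENSMUSG00000029752.12, chromosome 6 from 7675169 to 7693254, minus strand), asparagine synthetase, had 85.2, 82.4 and 85.1 CPM in CTR, 69.9, 68.1 and 67.6 CPM in CX3 and 91.8, 101 and 95.8 CPM in DAT. The 3 groups did not overlap, with CX3 lowest and DAT highest. Asns fell in CX3 against CTR (log2 fold change -0.30 ± 0.047, adjusted p 0.000306) and lay lower in CX3 than in DAT (-0.49 ± 0.047, adjusted p 6.89e-07). It was higher in DAT than in CTR by 0.19 ± 0.047 with an adjusted p of 0.00294. The difference between CX3 and DAT was -0.30 when counts were scaled by library size alone (adjusted p 9.68e-05). The call in DAT against CTR was lost when counts were scaled by library size alone (0.04, adjusted p 0.424) and in forward-strand counts (0.08, adjusted p 0.181).

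Chac1 (ENSMUSG00000027313.3, chromosome 2 from 119351229 to 119354381, plus strand), which encodes an enzyme that degrades glutathione, had 4.70, 5.69 and 5.87 CPM in CTR, 5.43, 4.77 and 5.68 CPM in CX3 and 8.17, 7.70 and 8.78 CPM in DAT. CTR and CX3 covered the same range, and all DAT libraries lay above both. Chac1 in DAT was 1.52 times its level in CTR (log2 fold change 0.60 ± 0.11, adjusted p 0.000308), and CX3 lay below DAT (-0.63 ± 0.11, adjusted p 0.000171). CX3 against CTR was -0.03 ± 0.11, with an adjusted p of 0.849.

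Sesn2 (ENSMUSG00000028893.8, chromosome 4 from 132492032 to 132510501, minus strand) encodes Sestrin 2, a leucine sensor that restrains the growth kinase mTORC1. It had 13.2, 13.2 and 12.9 CPM in CTR, 11.2, 11.6 and 11.1 CPM in CX3 and 24.2, 20.0 and 22.6 CPM in DAT. The increase in DAT, 1.70 times CTR (log2 fold change 0.77 ± 0.072, adjusted p 4.83e-07), was the largest rise among the 10 genes against CTR. CX3 was at 0.505 times the level of DAT (-0.99 ± 0.072, adjusted p 3.84e-08). Sesn2 was also called lower in CX3 than in CTR (-0.22 ± 0.074, adjusted p 0.0398). That call was lost on leaving out any one CTR library, any one CX3 library or DATC (adjusted p between 0.0768 and 0.107) and in DESeq2 (adjusted p 0.108). It was also lost under library size alone (adjusted p 0.0983), without the filter on low counts (0.162) and in the counts of either strand (0.132 in both), while it held without CX3A and DATB together (-0.21, adjusted p 0.0136).

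Ddit4 (ENSMUSG00000020108.4, chromosome 10 from 59949669 to 59951834, minus strand) encodes REDD1, another brake on mTORC1, which glucocorticoids and hypoxia induce as well as ATF4. Its levels were 92.5, 94.4 and 87.4 CPM in CTR, 64.3, 60.9 and 62.1 CPM in CX3 and 75.1, 80.9 and 74.0 CPM in DAT. All 3 groups were separate, in the order CTR, DAT, CX3. Ddit4 in CX3 was 0.683 times its level in CTR (log2 fold change -0.55 ± 0.050, adjusted p 1.93e-06). DAT lay below CTR by a log2 fold change of -0.26 ± 0.050 (adjusted p 0.000547), and CX3 below DAT by -0.29 ± 0.051 (adjusted p 0.000178). The difference between DAT and CTR was -0.15 with an offset for exon length (adjusted p 0.0028) and -0.40 under library size alone (adjusted p 1.09e-05). That between CX3 and DAT was -0.10 under library size alone (adjusted p 0.0988) and -0.19 in forward-strand counts (adjusted p 0.00914). Among 11 glucocorticoid-responsive genes, a list in which Ddit4 itself was not counted, 11 were lower in CX3 than in CTR and none was higher, and 1 was higher and 8 were lower in DAT. Sgk1, a kinase gene of this list, was at 365 ± 5.10 CPM in CTR, 101 ± 1.33 CPM in CX3 and 127 ± 9.24 CPM in DAT. Of 9 hypoxia-responsive genes, 3 were higher and 2 lower in CX3 than in CTR, and 4 were higher and 2 lower in DAT. Under library size alone these hypoxia counts were 5 and 2 in CX3 and 2 and 2 in DAT. Of all genes tested, 14.0% were called higher and 16.5% lower in CX3 against CTR, and 32.0% and 27.9% in DAT. The part of either list in the Ddit4 values was not tested.

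Trib3 (ENSMUSG00000032715.9, chromosome 2 from 152337422 to 152344032, minus strand), a pseudokinase gene whose product feeds back on ATF4 and CHOP, was near the limit of what these libraries could resolve. It had 1.31, 1.24 and 0.933 CPM in CTR, 0.935, 1.18 and 0.625 CPM in CX3 and 0.905, 1.01 and 1.01 CPM in DAT, from 20 to 45 counts per library. The groups overlapped, and no comparison was called. The log2 fold change was -0.36 ± 0.24 in CX3 against CTR (adjusted p 0.29), -0.27 ± 0.25 in DAT against CTR (adjusted p 0.374) and -0.09 ± 0.26 in CX3 against DAT (adjusted p 0.797).

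Atf6 (ENSMUSG00000026663.6, chromosome 1 from 170704674 to 170867771, minus strand) encodes an ER membrane protein that is cut under stress to free a transcription factor. It had 46.7, 45.8 and 46.8 CPM in CTR, 40.3, 46.2 and 48.1 CPM in CX3 and 60.2, 50.3 and 60.3 CPM in DAT. DAT lay above the other groups, and CX3A and DATB were the lowest libraries of their groups. Atf6 has the longest exons of the 10 genes, 9231 bases, and the levels of long genes were low in these 2 libraries. It rose in DAT against CTR (log2 fold change 0.30 ± 0.075, adjusted p 0.00357) and was lower in CX3 than in DAT (-0.35 ± 0.075, adjusted p 0.00112). Without CX3A and DATB these differences were 0.36 and -0.33 (adjusted p 2.98e-11 and 1.82e-09), and with an offset for exon length they were 0.15 and -0.17 (adjusted p 0.0162 and 0.00593). CX3 against CTR was -0.05 ± 0.075 (adjusted p 0.652). The rise in DAT was not called under scaling by library size alone (0.15, adjusted p 0.0909) or in reverse-strand counts (0.14, adjusted p 0.185), nor was the difference between CX3 and DAT under library size alone (-0.16, adjusted p 0.0799).

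Xbp1 (ENSMUSG00000020484.18, chromosome 11 from 5520659 to 5525893, plus strand) encodes the factor that the ER stress sensor IRE1 activates by splicing its mRNA, and it is abundant in antibody-secreting cells. The counts hold both splice forms together. Xbp1 had 141, 130 and 131 CPM in CTR, 96.0, 94.3 and 92.1 CPM in CX3 and 99.4, 111 and 97.4 CPM in DAT. CTR lay above both other groups in every library. The log2 fold change was -0.51 ± 0.054 in CX3 against CTR (adjusted p 8.18e-06) and -0.39 ± 0.054 in DAT against CTR (adjusted p 2.66e-05). CX3 and DAT did not overlap, but their difference of -0.12 ± 0.054 was not called (adjusted p 0.0685), while it was with an offset for exon length (-0.10, adjusted p 0.0453). Plasma cell and B lineage markers moved with Xbp1 in the comparisons with CTR: 11 of 11 were lower in CX3 than in CTR and 10 of 11 in DAT, although 6 were higher and 1 lower in CX3 than in DAT, and their summed level was 1360 to 1398 CPM in CTR, 240 to 262 CPM in CX3 and 41.4 to 52.3 CPM in DAT. None of the 11 was at 0 in all libraries of a group. Most of this sum came from Igkc, an antibody light chain gene at 1055 ± 19.4, 167 ± 8.69 and 25.8 ± 4.04 CPM, and Jchain, the joining chain gene, at 298 ± 9.22, 71.9 ± 2.56 and 8.79 ± 1.49 CPM. Their part in the Xbp1 result was not tested.

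Between genes, levels were compared as CPM per kilobase of exon. In CTR, Ddit4 (52.1 ± 2.05) and Atf4 (49.1 ± 0.868) were highest, followed by Xbp1 at 41.2 ± 1.79, Asns at 30.8 ± 0.578 and Ddit3 at 15.5 ± 0.912. Atf6, Sesn2, Chac1 and Atf3 lay between 5.03 and 2.48, and Trib3 was lowest at 0.546 ± 0.0945. In CX3 and DAT, Atf4 headed the order, at 54.9 ± 1.36 and 51.1 ± 5.62. Taken as mean ± SD, neighbors in this order overlapped for Sesn2 and Chac1 in CX3, and in DAT for Atf4 and Ddit4, for Asns and Xbp1, and for Sesn2 and Atf6. Sesn2 moved from rank 7 in CTR and CX3 to rank 6 in DAT, above Atf6 by less than its SD.

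**Figure D3:**
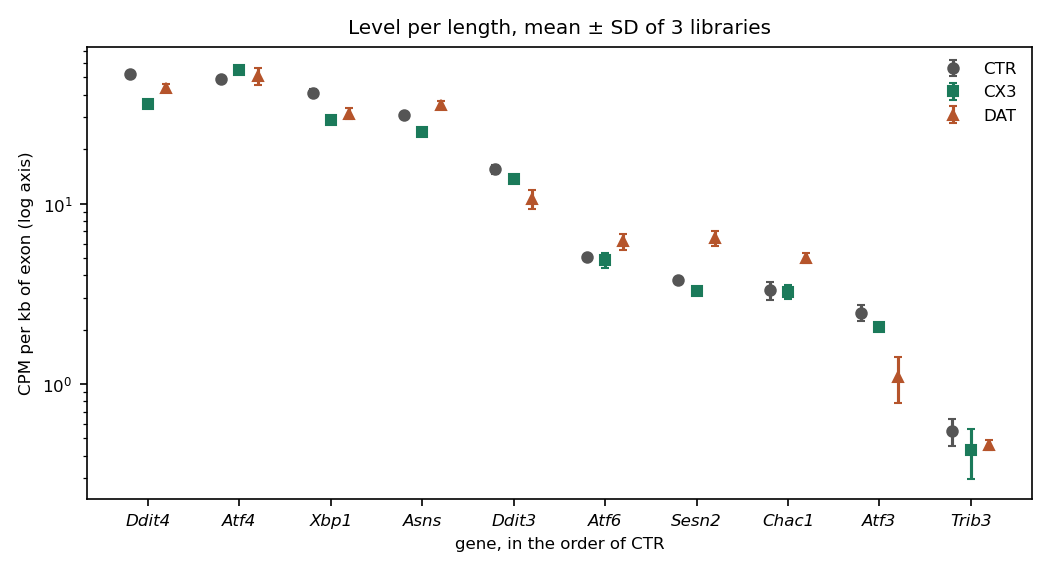
Level per kilobase of exon (log axis) of the 10 genes, ordered as in CTR, as mean ± SD of the 3 libraries of each group. The genes span from 0.546 for Trib3 to 52.1 for Ddit4 in CTR, and Atf3 and Ddit3 are lowest in DAT.

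Upstream of ATF4, the list of eIF2 kinases, phosphatase subunits and subunits of eIF2 and eIF2B held 14 genes. Counts of this and the other lists stand beside the shares of all genes called, 14.0% higher and 16.5% lower in CX3 against CTR, 32.0% and 27.9% in DAT against CTR, and 27.6% and 31.3% in CX3 against DAT. In CX3 against CTR, 3 of these were lower and none was higher, while in DAT 6 were higher and 2 lower, and the medians of the list were -0.06 and 0.10 on the log2 scale. These counts are near the shares of all genes. Scaled by library size alone, 2 were higher and 3 lower in CX3 against CTR, and 3 were higher and 5 lower in DAT. Eif2ak2, the gene of the double-stranded RNA sensor PKR, was at 47.7 ± 0.761 CPM in CTR, 37.6 ± 3.51 CPM in CX3 and 21.9 ± 0.802 CPM in DAT. It was lower in CX3 (log2 fold change -0.34 ± 0.063, adjusted p 0.000918) and in DAT (-1.12 ± 0.068, adjusted p 5.46e-09). Eif2ak3, the gene of the ER stress kinase PERK, went in opposite directions, with 26.8 ± 0.761 CPM in CTR, 23.1 ± 0.174 CPM in CX3 and 35.8 ± 0.975 CPM in DAT, and was called in all 3 comparisons. Ppp1r15a, which encodes GADD34, the phosphatase subunit that ends the response, rose in DAT (0.36 ± 0.072), and its value in CX3, 0.19 ± 0.070, was not called against CTR.

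Among 17 genes for amino acid synthesis and transport linked to ATF4, 10 were lower and none was higher in CX3 against CTR. In DAT, 7 were higher and 4 lower, near the shares of all genes called. CX3 lay below DAT in 12 and above it in 1. The genes that led the rise in DAT were the transporters Slc7a1 (23.9 ± 0.684 CPM in CTR, 25.5 ± 0.929 CPM in CX3, 52.2 ± 6.10 CPM in DAT), which carries arginine and lysine, and Slc7a5 (36.8 ± 0.782, 40.6 ± 1.15 and 74.1 ± 4.37 CPM), which carries leucine. Slc3a2, the partner chain of Slc7a5, was lowest in CX3, at 95.2 ± 2.92 CPM against 136 ± 1.04 CPM in CTR and 156 ± 5.46 CPM in DAT. Slc1a5, a glutamine carrier, went the other way in DAT, with 11.9 ± 0.592 CPM in CTR, 8.64 ± 0.690 CPM in CX3 and 4.97 ± 0.150 CPM in DAT. Phgdh and Psat1, enzymes of serine synthesis, were lower in CX3 than in CTR by log2 fold changes of -0.49 ± 0.062 and -0.31 ± 0.040, and so was Slc7a11, the cystine transporter (-0.44 ± 0.070). In DAT, Phgdh (-0.04 ± 0.062) and Slc7a11 (0.04 ± 0.070) were not called, while Psat1 was lower (-0.19 ± 0.040). Under scaling by library size alone, the list in DAT turned to 5 higher and 6 lower.

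The cytosolic aminoacyl-tRNA synthetases, enzymes that charge tRNAs and are known outputs of ATF4, differed most between CX3 and DAT. Of 18, 10 were lower and none was higher in CX3 against CTR, 11 were higher and 2 lower in DAT against CTR, and 14 were lower and none was higher in CX3 than in DAT. Aars, which charges alanine, was at 164 ± 5.03 CPM in CTR, 116 ± 2.79 CPM in CX3 and 259 ± 3.49 CPM in DAT, a log2 fold change of -1.16 ± 0.042 between CX3 and DAT (adjusted p 3.89e-11). Wars, which charges tryptophan, was at 86.3 ± 3.03, 81.1 ± 3.29 and 141 ± 2.84 CPM. Eprs, which charges glutamate and proline, was lower in both CX3 (-0.33 ± 0.041) and DAT (-0.18 ± 0.041) than in CTR. Under library size alone, 7 synthetases were higher and 5 lower in DAT against CTR, and 4 were higher and 9 lower in CX3 than in DAT. Without CX3A and DATB, 15 were lower in CX3 than in CTR, and 11 were higher and 4 lower in DAT. In CX3 against DAT, 2 were then higher and 14 lower, and with an offset for exon length 2 were higher and 13 lower. Neuron markers were highest in DAT as well, with summed levels of 5002 to 5041 CPM against 3369 to 3391 CPM in CTR and 3660 to 3717 CPM in CX3, and 6 of 7 higher in DAT than in CTR. Their part in the higher levels of Sesn2, Chac1, Asns, Atf6 and these lists in DAT was not tested.

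Other transcription factors and outputs of the response were 15 genes, of which 14 were tested. In CX3 against CTR, 6 were lower and none was higher, and in DAT 9 were lower and 2 higher. Some lists had none higher in CX3 against CTR. At an unadjusted p under 0.05, the count of higher genes was 2 for the eIF2 list and 1 for amino acid genes. It was 0 for the synthetases, these other factors and the glucocorticoid-responsive genes, and DESeq2 called 0 in each list. Without CX3A and DATB, 1 was higher in each of the eIF2 list, the amino acid genes and these other factors. The synthetases and glucocorticoid-responsive genes then still had 0. Under library size alone, 2 of the eIF2 list and 1 amino acid gene were higher. No synthetase was higher in CX3 than in DAT by DESeq2 or at an unadjusted p under 0.05 either. By contrast, 2 were higher without CX3A and DATB, 2 with the length offset and 4 under library size alone. Cebpd, a C/EBP factor, was at 21.9 ± 0.914 CPM in CTR, 11.2 ± 1.44 CPM in CX3 and 8.68 ± 0.589 CPM in DAT. Nupr1, a small stress-induced chromatin protein gene, was called lower in DAT alone of the 2 comparisons with CTR, with 19.1 ± 0.760, 18.0 ± 1.45 and 10.5 ± 1.20 CPM, and the difference between CX3 and DAT was 0.79 ± 0.086 (adjusted p 2.27e-06). Sqstm1, which encodes the autophagy receptor p62, was higher in DAT (598 ± 25.3 CPM) and lower in CX3 (386 ± 2.90 CPM) than in CTR (470.0 ± 6.46 CPM). Of 8 p53 targets, 1 was higher and 3 lower in CX3 than in CTR, and 1 higher and 4 lower in DAT, beside 14.0% and 16.5% of all genes in the first comparison and 32.0% and 27.9% in the other. Of 11 immediate early genes, the class to which Atf3 is often added, 1 was higher and 5 lower in CX3, but 8 were higher and 1 lower in DAT, where Atf3 fell. Egr1, an immediate early gene that marks neuronal activity, had a log2 fold change of 1.46 ± 0.052 in DAT against CTR.

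ER chaperones and genes of ER-associated degradation, the outputs of XBP1 and ATF6, were lower in 19 of 26 and higher in 1 in CX3 against CTR, with a median log2 fold change of -0.31. In DAT, 14 were lower and 7 higher, with a median of -0.22. Hspa5, the gene of the main ER chaperone BiP, was at 621 ± 9.38 CPM in CTR, 353 ± 8.17 CPM in CX3 and 467 ± 29.3 CPM in DAT, and was lower in CX3 (-0.82 ± 0.046) and DAT (-0.41 ± 0.046). Derl3, a degradation component, had the lowest fold changes of the list against CTR, with 4.91 ± 0.339 CPM in CTR, 1.93 ± 0.164 CPM in CX3 and 1.42 ± 0.351 CPM in DAT. Hyou1, an ER chaperone, was lower in CX3 (-0.69 ± 0.043) and higher in DAT (0.53 ± 0.042), and so was Syvn1, the ubiquitin ligase of ER-associated degradation (-0.27 ± 0.059 and 0.64 ± 0.058). Herpud1, a further degradation component, fell in CX3 (-0.72 ± 0.050), while its value in DAT, -0.10 ± 0.050, was not called. Mbtps1, which encodes the protease that cuts ATF6, was the gene called higher in CX3 (0.21 ± 0.050). In CX3 against DAT, 15 of the list were lower and 3 higher, or 11 and 10 under library size alone, and Edem1, which helps select misfolded proteins, led the 3 (0.57 ± 0.055). Dnajb9, a chaperone gene activated by spliced XBP1, was called in neither comparison with CTR (-0.09 ± 0.071 and 0.10 ± 0.072). The plasma cell and B lineage markers given with Xbp1 fell beside these chaperones in the comparisons with CTR, but in CX3 against DAT 6 were higher and 1 lower while most of the called chaperones were lower. Their part in the chaperone values was not tested.

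**Figure D4:**
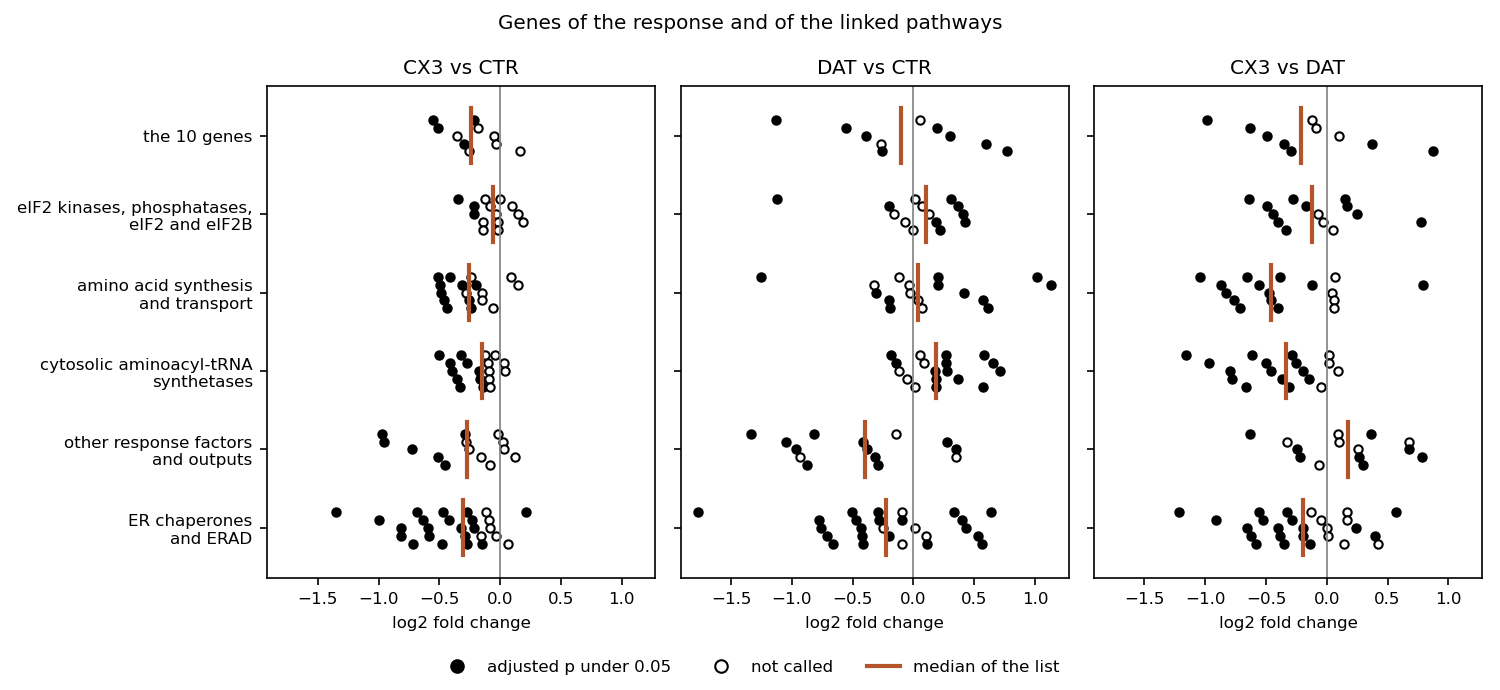
Log2 fold change (horizontal axis) of each tested gene of the 10 genes and of 5 linked lists in the 3 comparisons, filled where called, with the median of each list as a bar. The synthetases lie mostly left of 0 in CX3 against CTR and mostly right of 0 in DAT against CTR, while the ER chaperones lie mostly left of 0 in both.

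Levels of other cell types also differed between the groups. Summed astrocyte markers were 4161 to 4220 CPM in CTR, 2373 to 2473 CPM in CX3 and 2364 to 2402 CPM in DAT, and microglia markers 690.1 to 698 CPM, 458 to 463 CPM and 451 to 463 CPM. Choroid plexus markers were 33.5 to 36.2 CPM in CTR, 1462 to 1572 CPM in CX3 and 862 to 1032 CPM in DAT, with 5 of 5 higher in both. Pituitary markers were 61.3 to 64.0 CPM, 6.09 to 6.44 CPM and 18.5 to 23.6 CPM, with Prl at 0 in all DAT libraries. Monocyte, macrophage and neutrophil markers were 282 to 292 CPM in CTR, 286 to 295 CPM in CX3 and 81.8 to 95.7 CPM in DAT. Endothelial markers were 185 to 186 CPM, 271 to 275 CPM and 278 to 284 CPM, with 3 of 4 higher in each of CX3 and DAT than in CTR. In CX3 none of the 4 was lower, while in DAT 1 was lower. Cerebellar granule and hindbrain markers were 38.6 to 41.2 CPM, 32.5 to 36.4 CPM and 64.7 to 67.8 CPM, and the 4 tested were all higher in DAT than in CTR. Oligodendrocyte markers were 20179 to 20259 CPM, 21399 to 21789 CPM and 14592 to 15524 CPM. Single markers of this list were split. Of 6, 2 were higher and 2 lower in CX3 than in CTR, and 2 were higher and 3 lower in DAT, with a median log2 fold change of -0.07 in DAT. Mapped reads that overlapped no annotated exon were 5.20% to 5.34% in DAT and 7.89% to 9.46% elsewhere. The part of these differences in the values of the 10 genes was not tested.

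Genes with the most similar profile were found for the 4 transcription factors Atf4, Ddit3, Xbp1 and Atf3, as those with the smallest root mean square difference in centred log2 CPM over the 9 libraries. Nearest to Xbp1 were Pdia6 (0.044), an ER chaperone gene, Sdc4 (0.051) and Itm2b (0.053). Those of Atf4 were Grpel1 (0.026), Atp6v1d (0.029) and Tmem38b (0.029). For Ddit3 they were Rida (0.044), Cnpy4 (0.048) and the ribosomal protein gene Rps13 (0.050). The nearest profiles to Atf3, Ccdc38 (0.086), Gm10767 (0.089) and Gm17193 (0.11), were less close. These likenesses describe 9 libraries that share 3 group means and are not independent points.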

How the data were processed

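The authors trimmed reads with Trimmomatic and aligned them with STAR to mm10, per the labels, and deposited raw counts per gene, in 1 column for the strands combined and 1 per strand. The layout is that of STAR, while the methods name featureCounts. Libraries were made from 1 μg of RNA with a stranded kit, but each strand held nearly equal counts, so both together were used. Identifiers were matched to GENCODE M21. Counts were fitted for 9 libraries with edgeR 4.0.16 (TMM, filterByExpr, glmQLFit) in R 4.3.3, and p-values were adjusted over all genes tested. DESeq2 1.42.0, other scalings, no filter, single strands, a fold threshold of 1.5, a replicate block and leaving out each library were alternatives. Motifs were searched and figures drawn with Python 3.11.15, pandas 2.3.3 and matplotlib 3.10.9. The 10 genes and all lists were chosen with earlier results of these data known. Genes named beside the 10 are the called genes with the highest and lowest fold change of each list, some of which are left out here, 9 genes that the rule names, nearest profiles and markers. Hyou1 leads its list in CX3 against DAT. Motif matches include overlaps. Results that need withheld items are not reported here.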

Additional observations from a re-analysis of the deposited data

Results flagged for a closer look

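For 7 of the 10 genes the level differed between CX3 and DAT, by the direct comparison of both groups in the same fit. In that comparison 27.6% of all genes were called higher and 31.3% lower in CX3, so 7 of 10 is near the background. The Cre line and tamoxifen differ between these groups as well. The log2 fold change of CX3 over DAT was 0.37 for Ddit3 and 0.87 for Atf3, which were higher in CX3. It was -0.49 for Asns, -0.63 for Chac1, -0.99 for Sesn2, -0.35 for Atf6 and -0.29 for Ddit4, which were lower in CX3.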

How the results depend on the processing

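No fold change of the 10 genes turned its direction past the threshold under any alternative. Over all 30 gene and comparison pairs, 29 kept their call in DESeq2, 30 with its size factors in edgeR, 23 under library size alone, 28 without the filter on low counts, 26 in reverse-strand and 27 in forward-strand counts, 28 in fits of only the 2 groups compared, 27 with an offset for exon length and 27 without CX3A and DATB, the last 2 alternatives being chosen after seeing the data. The number of the 10 genes called higher in CX3 against CTR was 1 in place of 0 under library size alone, without the filter, in reverse-strand counts, in the fit of only these 2 groups, with the length offset and without CX3A and DATB, and 0 to 1 on leaving out 1 library at a time. That gene was Atf4 each time. Scaling by library size alone moved the median log2 fold change of all genes from near 0 to -0.15 in DAT against CTR and to 0.20 in CX3 against DAT. It left 2 of the 10 genes higher in DAT against CTR and 3 lower in CX3 against DAT, and over all genes gave 4890 higher and 8045 lower in DAT against CTR and 8916 higher and 4444 lower in CX3 against DAT, where TMM gave 6686 and 5834, and 5767 and 6544.

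Testing against a fold of 1.5 instead of no change left 0 higher and 0 lower of the 10 genes in CX3 against CTR (173 and 356 of all genes), 1 and 1 in DAT against CTR (1532 and 2241), and 0 and 1 in CX3 against DAT (2074 and 1706). Without CX3A and DATB, 4390 genes were higher in CX3 against CTR. The cause of these changes was not tested, except that a fold test asks for larger effects. Correlations of the deviations of same-lettered libraries ranged from -0.372 to 0.158, and those of differently lettered libraries from -0.352 to 0.412. With 3 libraries per group, and with CX3A and DATB deviating by exon length, these values cannot show whether the letters mark pairs. With the letter as a replicate block, the log2 fold change of Sesn2 in CX3 against CTR was -0.22 with an adjusted p of 0.0552, and the other 29 calls did not change. Depth limits Trib3 and Atf3 most, with as few as 20 and 33 counts per library.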
